A study of Mus musculus with 8 samples.

Results

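Ribosome footprints of mouse oligodendrocytes were compared with those of oligodendrocyte precursor cells (OPCs), to ask on which genes and functions each cell type spends its ribosomes. The transcripts compared were chosen by abundance alone. Of 10987 listed protein-coding transcripts, 8342 had a mean footprint level of 1 FPKM or more (sequenced fragments scaled to the length of the coding sequence and to the size of the library) over the 4 footprint libraries, and these are the tested transcripts. The OPCs were derived from epiblast stem cells of the strain 129S/SvEv and were grown in medium with bFGF and PDGFA. The oligodendrocytes were made from OPCs that were first passaged without bFGF, in medium with T3, noggin, IGF-1, cyclic AMP and NT3. Each cell type had 2 cultures, and the lysate of each pooled several plates. The methods call the oligodendrocyte cultures the counterparts of the OPC cultures, and cultures with the same number were taken as pairs, which the methods do not state. The study describes the differentiated cultures as retaining some undifferentiated OPCs, so they are a mixture. In such bulk samples, fewer cells of a type and less RNA per cell cannot be told apart. The p-values measure the spread between 2 cultures of a cell type.

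A ribosome shields the stretch of mRNA that it is reading from nuclease. Sequencing the shielded fragments after digestion with micrococcal nuclease (MNase) counts the ribosomes on each coding sequence. Here the footprint share of a transcript is its FPKM times its coding length, as a percentage of the same product summed over the tested transcripts of that library. It approximates the share of engaged ribosomes found on that transcript. OPCs are dividing glial progenitors. Oligodendrocytes leave the cell cycle, extend processes and wrap axons in myelin, a multilayered membrane rich in cholesterol and glycosphingolipids.

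The smallest totals that fitted the step size of low FPKM values were about 249 and 207 Mb of aligned bases in the OPC cultures and 214 and 93.0 Mb in the oligodendrocyte cultures. Whole multiples of these totals, which can differ between libraries, fitted as well, so the order of the depths is uncertain. The second oligodendrocyte library listed 31.1% of the 10987 transcripts at 0, against 14.7% to 20.5% in the other libraries. Across the 8342 tested transcripts the Spearman correlation was 0.977 between the OPC libraries, 0.922 between the oligodendrocyte libraries and at most 0.812 between cell types. A transcript listed at 0 may reflect depth or a failed estimate, and no fold is given against it.

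Differentiation was accompanied by a broad redistribution of ribosomes. Averaged over cultures, 32.2% of the footprints sat on different transcripts in the 2 cell types, compared with 8.53% between the OPC libraries and 10.6% between the oligodendrocyte libraries. By limma on log2(FPKM + 0.1), with Benjamini-Hochberg adjustment over all tested transcripts and a threshold of 0.05, 23.6% of transcripts changed. The transcripts that were higher in oligodendrocytes made up 12.8% (1065) and those that were lower 10.8% (904). When the libraries were scaled to the same sum of FPKM, which moved the median log2 change by 0.30, the counts were 1421 higher (17.03%) and 563 lower (6.75%). The 1065 transcripts that rose held 8.55% and 8.79% of OPC footprints and 32.9% and 34.8% of oligodendrocyte footprints, and those that fell went from 37.5% and 34.9% to 13.6% and 13.5%. These shares describe the selected transcripts and are not a further test. RNA-seq of the same cultures called 1083 of 8346 tested transcripts higher and 20.2% lower, including 783 of the risers higher and 721 of the fallers lower. Of the risers 122 had an OPC mean under 1 FPKM, and of the fallers 69 an oligodendrocyte mean under 1 FPKM, so these entered the test through the other cell type. Without OPC replicate 1 or without OPC replicate 2, the single remaining OPC library was assumed to vary like the others and limma called 0 transcripts, with 1961 and 1934 at an unadjusted p under 0.05 against 3173 with all libraries. With the same assumption for the single oligodendrocyte library, 882 were higher and 2128 lower without oligodendrocyte replicate 1, and 538 were higher and 405 lower without oligodendrocyte replicate 2.

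Translation was spread over many transcripts in both cell types. Of the footprints of OPC libraries, 50% lay on the 464 and 504 most occupied transcripts, and those of oligodendrocyte libraries on 604 and 505. The 100 leading transcripts of each cell type had 40 in common. Actb, which encodes cytoplasmic beta-actin (chr5:142903115-142906754, minus strand, GRCm38), led both orders with a mean share of 1.05% in OPCs and 1.45% in oligodendrocytes. Its FPKM of 6225 and 7379.7 in OPCs and 8629 and 9824 in oligodendrocytes did not pass the test (log2 change 0.44, SE 0.20, adjusted p = 0.193, or 0.0178 with the replicate block that pairs the cultures), and 46% of the 30-base stretches (words) of its coding sequence also occur in transcripts of other genes.

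In OPCs, Actb was followed by Eef1a1 (the elongation factor that brings aminoacyl-tRNA to the ribosome), Fabp7 (a fatty acid binding protein of glial progenitors), Vim (the intermediate filament protein vimentin) and Hsp90ab1 (a cytosolic chaperone). Atp5b (a catalytic subunit of ATP synthase), Hspa8 (a constitutive chaperone), Ptprz1 (a receptor tyrosine phosphatase of OPCs), Hspa5 (the chaperone BiP of the endoplasmic reticulum) and Ppia (cyclophilin A) completed the first 10. In oligodendrocytes the first 10 included, after Actb and in this order, Cnp, Fscn1, Eef1a1, Ptprz1, Gnas, Hspa8, Cd81 and Atp5b. Thus 5 transcripts were among the first 10 of both cell types. Ptprz1 was at 395 and 475 FPKM in OPCs, compared with 392 and 492 FPKM in oligodendrocytes, with a log2 change of 0.02 (SE 0.18). Fabp7 measured 11206 and 9194 FPKM in OPCs, compared with 7106 and 4324 FPKM in oligodendrocytes. Its groups did not overlap, but the difference did not pass the test (adjusted p = 0.130, or 0.0271 with the block). The Gnas coding sequence overlaps exons of an antisense gene over 1139 bases, and reads of the pair cannot be told apart because no strand option was stated.

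**Figure D1:**
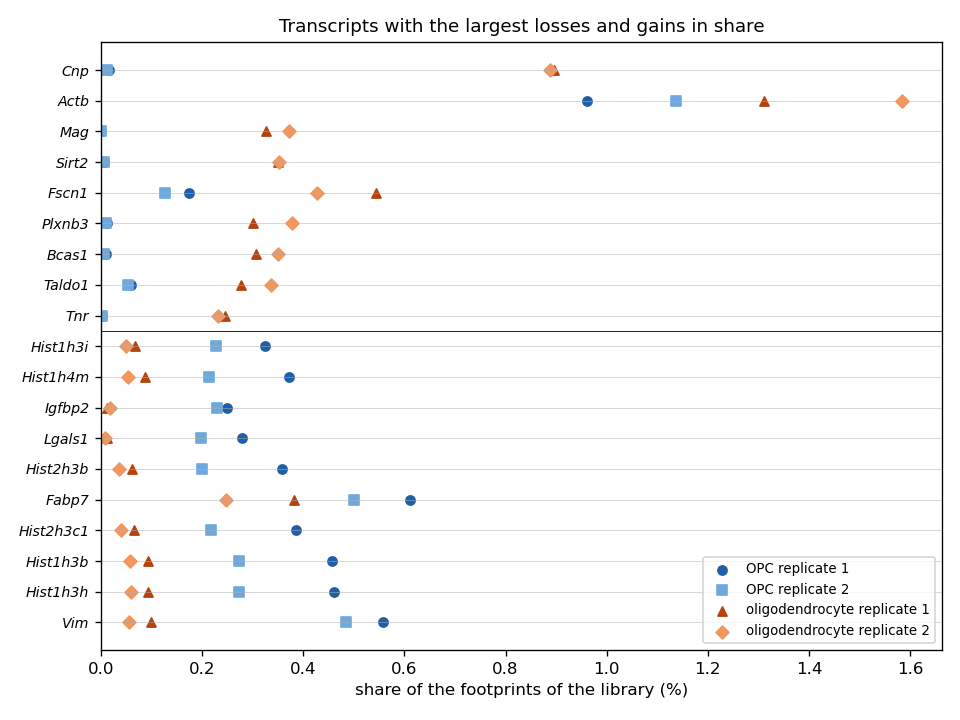
Footprint share (percent of the footprints of the library, linear axis) of 9 of the transcripts with the largest gains and the 10 with the largest losses of share, sorted by the difference of the means, with 1 point per library, blue for OPC and orange for oligodendrocyte cultures. Cnp moved from 0.0144% to 0.892%, and Vim from 0.521% to 0.077%.

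Myelin genes gained more share than any other list. A list of 47 myelin and oligodendrocyte genes had 43 tested members, which held 0.294% and 0.337% of the footprints in OPCs and 5.04% and 5.59% in oligodendrocytes, a 16.8-fold difference of the means. Some further myelin genes and OPC or lineage markers, Mbp, Cspg4 and Olig2 among them, were not analysed here, and these sums do not include them. Of the 43, 34 rose and 1 fell, against 12.8% and 10.8% of all tested transcripts. Of the risers, 14 had an OPC mean under 1 FPKM, so they entered the test through oligodendrocytes. Of the 43, 31 were above 0 in both cell types, with a median log2 change of 4.94 where the median over 8118 such transcripts was -0.17.

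Cnp, the 2',3'-cyclic nucleotide phosphodiesterase of non-compact myelin (chr11:100574904-100581728, plus strand, 4 exons), rose from 93.3 and 73.1 FPKM to 5268 and 4921 FPKM. Its share reached 0.892%, the third place in oligodendrocytes. Sirt2, a tubulin deacetylase abundant in myelin (chr7:28766767-28788660), went from 39.9 and 38.5 FPKM to 2223 and 2109.8 FPKM. Mag, the adhesion protein of the membrane facing the axon (chr7:30899183-30914327), was at 1.81 and 0 FPKM in OPCs and at 1383 and 1484 FPKM in oligodendrocytes (adjusted p = 0.0146). These 3 genes did not overlap between cell types, and 31.8% of all tested transcripts were apart in the same direction.

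Cd81, a tetraspanin with expression in many cell types, already measured 1427 and 1926 FPKM in OPCs and rose to 3539 and 3842 FPKM. Tspan2, another tetraspanin, was listed at 0 in both OPC libraries and at 281 and 250.2 FPKM in oligodendrocytes. Cldn11, the claudin of myelin tight junctions, rose from 6.08 and 4.04 FPKM to 648 and 365 FPKM. Bcas1, a protein of early myelinating cells, rose from 35.6 and 26.3 to 1201 and 1289 FPKM, with 474 bases shared with exons of opposite-strand genes. The faller was Prr5l, a binding partner of the mTORC2 kinase complex, at 6.38 and 6.03 FPKM in OPCs and listed at 0 in both oligodendrocyte libraries (adjusted p = 0.0254, or 0.0720 with the replicate block).

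**Figure D2:**
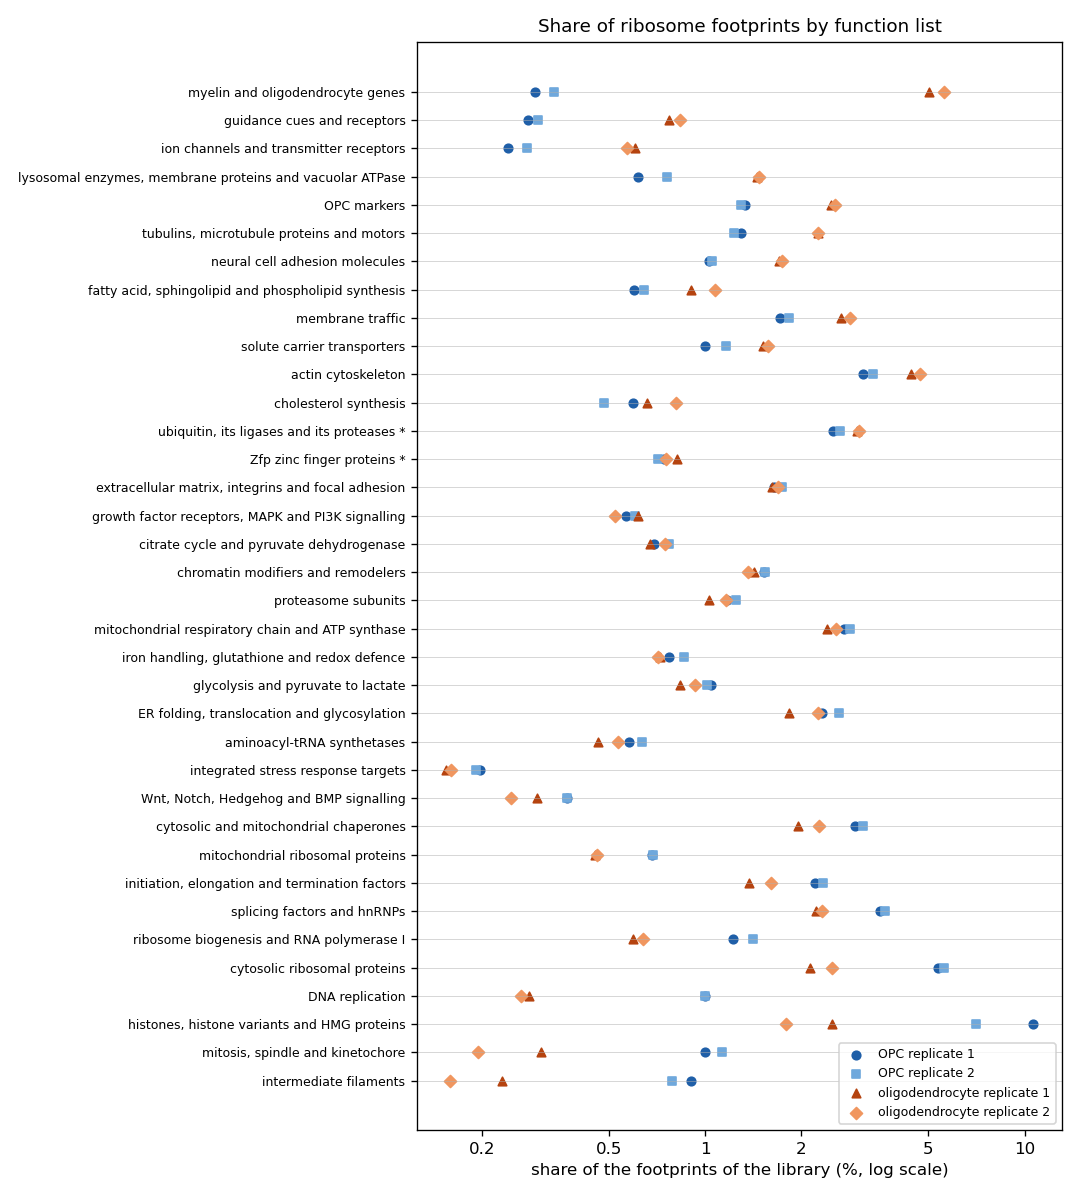
Footprint share (percent, log axis) of 36 function lists in each of the 4 libraries, 1 point per library (asterisks mark lists added after values were seen), sorted by the ratio of oligodendrocyte to OPC means. Myelin stands at 5.04% and 5.59% in oligodendrocytes against 0.294% and 0.337% in OPCs, and histones at 10.6% and 7.05% in OPCs against 2.496% and 1.79%.

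Of 37 function lists, which together hold 2449 tested transcripts, 15 had a higher share in both oligodendrocyte libraries than in both OPC libraries, 19 a lower one, and 3 overlapped. The 3 lists added after values were seen are all among the 15, and 2 of them changed direction when only transcripts with few shared words were used. Among single transcripts the FPKM groups were apart with oligodendrocytes higher in 31.8% and lower in 37.9%. An exact two-sided permutation test of 2 against 2 cultures cannot give a p under 0.333, so list shares are given without a test. Lists are described by the limma calls of their members. The counts depended on the libraries. Without oligodendrocyte replicate 2, which listed the most transcripts at 0 and without which 6.45% of all tested transcripts were higher and 4.85% lower, the list counts stood at 33 higher of the 43 myelin members, 37 lower of the 52 replication members and 31 lower of the 58 mitosis members, but at 5 lower of 60 histones, 23 lower of 60 ribosomal proteins, 4 lower of 71 splicing factors and 8 higher of 45 lysosomal members. In the same setting 10 of 82 adhesion, 14 of 165 traffic, 15 of 68 microtubule, 9 of 47 guidance, 12 of 55 channel, 12 of 126 carrier, 5 of 64 actin, 8 of 39 OPC marker, 3 of 45 lipid and 0 of 20 cholesterol genes were higher, of which the traffic, carrier, actin and lipid counts lie near the share of all transcripts. Among the falling lists, histones, splicing factors, mitochondrial ribosomes and translation factors were likewise near the share of all tested transcripts in this setting. Ribosome assembly and chaperones were above it. Without oligodendrocyte replicate 1, 25.5% of all tested transcripts were lower, and so were 15 of 47 guidance, 11 of 55 channel, 25 of 126 carrier, 11 of 165 traffic and 29 of 69 matrix genes. Without OPC replicate 1 or 2, limma called 0 members of any list.

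Genes of lysosomes and lipid synthesis also took more ribosomes. Lysosomes, the acidic organelles of degradation, also store and release myelin proteins in oligodendrocytes. The lysosome list rose from shares of 0.617% and 0.759% to 1.45% and 1.48%, and 27 of its 45 tested members rose while 1 fell. The median log2 change was 1.11 over the 44 members above 0 in both cell types. Psap, the precursor of the saposins that help degrade sphingolipids, went from 697 and 800.5 FPKM to 1683 and 1253 FPKM. Ctsl, a cysteine protease, went from 39.3 and 45.6 FPKM to 266 and 249 FPKM. Of 15 subunits of the vacuolar ATPase, the proton pump that acidifies lysosomes, 11 rose and 0 fell, and their summed share went from 0.236% and 0.258% to 0.546% and 0.603%. The faller was Ctsc, another lysosomal protease, whose OPC libraries differed widely (42.8 and 324 FPKM, against 0.994 and 3.38 FPKM in oligodendrocytes).

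Promoters of lysosomal genes often carry the CLEAR element, the binding site of the factor TFEB. Its core, TCACGTGA, reads the same on both strands. It was searched between 250 bases before and 50 bases after the annotated start in the RefSeq table (GRCm38.p6). The core was present in 5 of the 36 lysosome promoters with an entry (13.9%), in 2.22% of promoters of tested genes and in 1.12% of all 27025 promoters. Among the other lists searched the highest was splicing factors, with 5 of 59 (8.47%). The windows of 30 bases around the match are shown for the called members with the largest share, with the core in capitals. Atp6v1a, a catalytic subunit of the vacuolar ATPase, lies at chr16:44139373-44139402 (minus strand), and Gnptg, a subunit of the enzyme that tags hydrolases for lysosomes, at chr17:25240120-25240149 (minus strand).
Atp6v1a: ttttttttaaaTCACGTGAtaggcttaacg
Gnptg: ccggctgtcacTCACGTGAccgtgagaccc
Atp6v1a rose from 82.0 and 82.8 FPKM to 197 and 181 FPKM. Gnptg rose from 25.5 and 40.7 FPKM to 69.8 and 89.3 FPKM, close to the threshold (adjusted p = 0.0489). A match is a description of the sequence, and no binding was measured.

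In the list of fatty acid, phospholipid and sphingolipid synthesis, 14 of 45 tested members rose and 0 fell, with shares of 0.600% and 0.643% in OPCs and 0.904% and 1.08% in oligodendrocytes. Not all enzymes rose. Fasn, the fatty acid synthase, was at 142 and 128 FPKM in OPCs and at 147 and 152 FPKM in oligodendrocytes (adjusted p = 0.397). Acsl3, which activates long-chain fatty acids, rose from 76.3 and 77.4 FPKM to 241 and 316 FPKM. Agpat4, an acyltransferase of phospholipid synthesis, rose from 38.1 and 42.5 FPKM to 338 and 369.8 FPKM.

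Of 20 cholesterol synthesis genes 4 rose and 0 fell, against 12.8% and 10.8% of all tested transcripts. Their shares were 0.595% and 0.481% in OPCs and 0.658% and 0.810% in oligodendrocytes. Hsd17b7, an enzyme that acts on a sterol intermediate, went from 29.7 and 16.3 FPKM to 143 and 99.7 FPKM. Ebp, a sterol isomerase, rose from 50.7 and 57.3 FPKM to 98.9 and 92.7 FPKM. Sqle, the squalene epoxidase, was at 299 and 319.5 FPKM in OPCs and at 297 and 382 FPKM in oligodendrocytes and did not pass the test (adjusted p = 0.600).

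The microtubule, actin, neural cell adhesion and guidance lists were higher in oligodendrocytes. In the microtubule list 26 of 68 tested members rose and 2 fell, with shares of 1.296% and 1.23% against 2.26% and 2.26%. Tppp, which bundles microtubules and marks oligodendrocytes, rose from 11.4 and 4.003 FPKM to 499 and 394 FPKM. Map1a, a microtubule-associated protein of mature processes, rose from 23.3 and 15.4 FPKM to 103 and 92.0 FPKM. The most translated member, the beta-tubulin Tubb5, went the other way, from 1428 and 1410.1 FPKM to 551 and 639 FPKM. Its direction was the same with the libraries scaled to the same sum.

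In the actin list 19 of 64 members rose and 7 fell (10.9%, near the 10.8% of all tested transcripts), or 3 with libraries scaled to the same sum. Fscn1, which bundles actin filaments in cell protrusions (chr5:142960343-142973185), rose from 854 and 625 FPKM to 2729.6 and 2016 FPKM and held 0.486% of oligodendrocyte footprints. Cyfip2, part of the WAVE complex that starts branched actin networks, rose from 7.61 and 8.41 FPKM to 194 and 254 FPKM, and its partner Wasf1 from 63.1 and 59.7 FPKM to 213 and 291 FPKM. Msn, encoding moesin, which links actin to the membrane, fell from 355 and 294 FPKM to 49.5 and 30.6 FPKM.

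Guidance molecules carried 0.279% and 0.300% of OPC footprints and 0.774% and 0.837% of oligodendrocyte footprints. Of 47 tested members, 15 rose and 4 fell (4 of the risers had an OPC mean under 1 FPKM), although the median of the 44 above 0 in both cell types was -0.26, and 0.04 with libraries scaled to the same sum. Among 14 semaphorins, secreted or membrane-bound cues for growing axons, 9 rose and 1 fell. Sema3e was listed at 0 in both OPC libraries and at 102 and 95.0 FPKM in oligodendrocytes, and Sema4d was at 0.682 and 0 FPKM in OPCs and at 74.3 and 74.8 FPKM in oligodendrocytes. Sema3a was the semaphorin that fell, from 54.9 and 56.3 FPKM to 13.9 and 4.22 FPKM. Receptors of the plexin family went both ways. Plxnb3 (chrX:73757099-73772514) rose from 15.5 and 12.9 FPKM to 390.4 and 463 FPKM, and Plxnb2 fell from 71.3 and 85.5 FPKM to 32.4 and 20.3 FPKM. Rtn4, which encodes the growth inhibitor Nogo, rose from 155 and 175 FPKM to 1040.2 and 909.7 FPKM.

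Cell adhesion molecules rose in 31 of 82 tested members (20 with the replicate block) and fell in 2, with shares of 1.03% and 1.05% in OPCs and 1.70% and 1.74% in oligodendrocytes. Ncam1, the neural cell adhesion molecule, rose from 212 and 202 FPKM to 313 and 305 FPKM. Igsf11, an adhesion molecule of the immunoglobulin superfamily, rose from 7.34 and 5.73 FPKM to 168 and 130.2 FPKM. Of 32 clustered protocadherins, 7 rose and 0 fell, against 12.8% and 10.8% of all tested transcripts. More than 10% of the words of 30 of them are shared with other transcripts, and reads of their common exons could be assigned to any of them. Chl1, an L1-type adhesion molecule, fell from 6.06 and 5.08 FPKM to 0.122 and 0 FPKM (adjusted p = 0.0364, or 0.0850 with the replicate block).

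Ion channels and transmitter receptors went from shares of 0.242% and 0.277% to 0.604% and 0.569%, with 17 of 55 tested members higher (10 with the replicate block) and 3 lower. Of the risers, 5 had an OPC mean under 1 FPKM and entered the test through oligodendrocytes, Kcna1 among them. Kcna1, a voltage-gated potassium channel (chr6:126640397-126644796), was at 0.421 and 0.0973 FPKM in OPCs and at 153 and 124.04 FPKM in oligodendrocytes. Grm5, a metabotropic glutamate receptor, fell from 37.0 and 22.8 FPKM to 5.66 and 2.72 FPKM.

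Vesicle traffic genes rose in 43 of 165 tested members and fell in 2, and their share went from 1.72% and 1.83% to 2.67% and 2.84%. Arf4, a small GTPase of the Golgi, went from 808 and 864 FPKM to 2327 and 2888 FPKM. Solute carriers rose in 29 of 126 members and fell in 11 (8.73%, against 10.8% of all tested transcripts), or 6 with libraries scaled to the same sum and 7 with the block. Slc25a5, a mitochondrial ADP/ATP carrier, fell from 1734 and 1890.4 FPKM to 798 and 813 FPKM. Slc1a1, a glutamate and cysteine transporter, rose from 10.6 and 6.26 FPKM to 795 and 856 FPKM, with 1216 bases of its coding sequence overlapping exons of an opposite-strand gene.

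**Figure D3:**
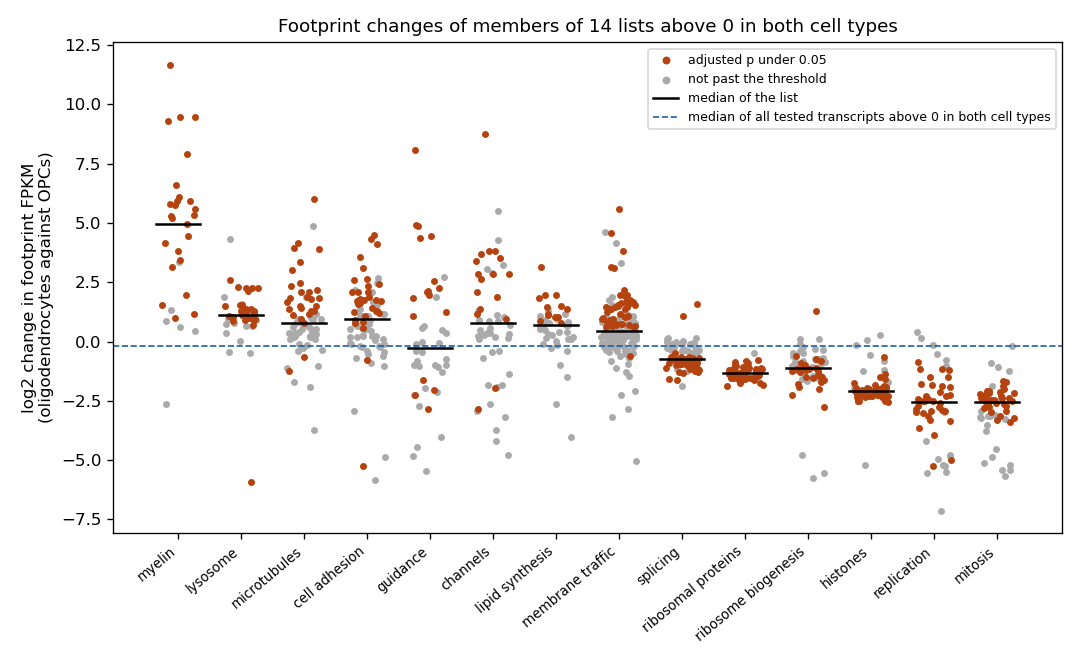
Log2 change of footprint FPKM, oligodendrocytes minus OPCs, for each member of 14 lists above 0 in at least 1 library of both cell types, with 1 point per transcript, the list median as a bar and the median over all such transcripts (-0.17) as a line. Myelin members centre on 4.94, replication members on -2.55 and cytosolic ribosomal proteins on -1.32.

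A change in the kind of protein made was visible across all tested transcripts. Each coding sequence was translated from the reference and searched for hydrophobic stretches, windows of 19 residues with a mean Kyte-Doolittle hydropathy of at least 1.6, which are typical of membrane-spanning segments and signal peptides. Coding sequences with at least 1 such stretch held 22.7% and 25.04% of OPC footprints and 33.7% and 35.3% of oligodendrocyte footprints. Without the myelin list the shares were 22.5% and 24.8% against 30.7% and 31.8%. The proportion of transcripts that rose went from 9.81% of those with no stretch to 24.2% of those with 7 or more, and the proportion that fell from 12.7% to 4.24%. RNA-seq shares, for which FPKM was multiplied by the length of the whole transcript, are not on the same scale. Those of coding sequences with a stretch were 29.9% and 29.6% in OPCs and 36.6% and 36.5% in oligodendrocytes.

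**Figure D4:**
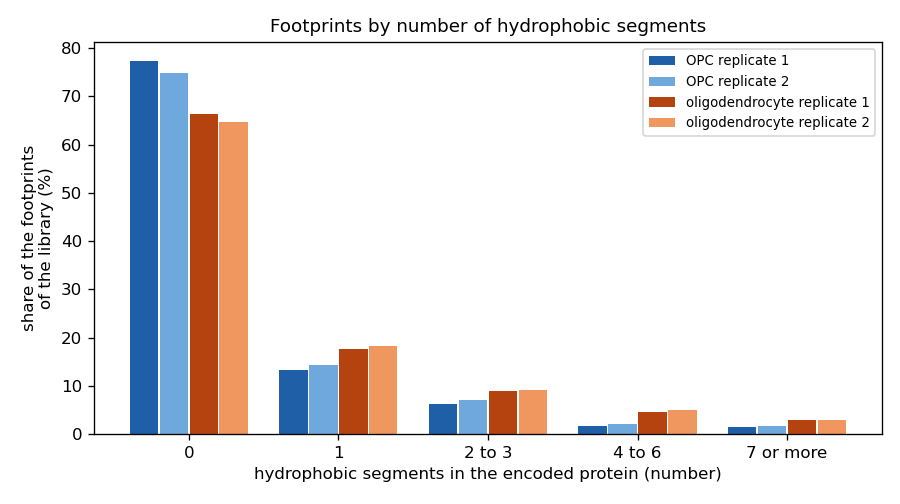
Footprint share (percent, bars from 0) of coding sequences grouped by the number of predicted hydrophobic stretches, with 1 bar per library. Those with no stretch hold 77.3% and 74.96% of OPC footprints and 66.3% and 64.7% of oligodendrocyte footprints, and each other class is higher in both oligodendrocyte libraries.

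Chromatin assembly and the cell cycle took a smaller share in oligodendrocytes. Histones package DNA, and replicative histone genes are transcribed during DNA synthesis. Histone transcripts held 10.6% and 7.05% of OPC footprints and 2.496% and 1.79% of oligodendrocyte footprints, and 49 of 60 tested members fell while 0 rose. The OPC libraries differed in this share, but both exceeded both oligodendrocyte libraries, and the OPC mean was 4.12-fold higher. Hist1h3h, a replicative H3 gene, fell from 8203 and 4865 FPKM to 1680.5 and 1008 FPKM. Hist1h4m, an H4 gene, fell from 8704 and 5006 FPKM to 2087 and 1204 FPKM. All 8 replicative H3 and all 10 replicative H4 transcripts fell, as did 14 of 15 of H2A and 9 of 10 of H2B. Because 54 of the 60 share more than 10% of their sequence words with other genes, values of single histone genes are uncertain and the sum is the firmer measure. Among 9 histone variants, which are made outside S phase as well, 3 fell and 0 rose, against 10.8% and 12.8% of all tested transcripts.

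Genes of DNA replication fell in 36 of 52 tested members and rose in 0. Their share went from 0.997% and 0.999% to 0.281% and 0.266%, and the median log2 change was -2.55. Rrm2, the regulatory subunit of ribonucleotide reductase (chr12:24708241-24714146), fell from 473 and 449 FPKM to 63.6 and 58.6 FPKM. Pcna, the sliding clamp of DNA polymerases, fell from 605 and 601 FPKM to 209 and 214 FPKM, with 76% of its words shared. All 5 subunits of the Mcm helicase that were tested fell, from summed shares of 0.174% and 0.186% to 0.0315% and 0.0296%. Top1, a topoisomerase that also serves transcription, measured 165 and 157 FPKM in OPCs, compared with 165 and 196 FPKM in oligodendrocytes (adjusted p = 0.427).

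Promoters of replication genes often carry sites for E2F, the factors that drive entry into S phase. The words TTTCCCGC and TTTGGCGC were searched on both strands in the same promoter windows. Either was present in 11 of 43 replication promoters (25.6%), 3.75% of promoters of tested genes and 1.798% of all promoters. The windows below, from called members of the list with the largest share, have the match in capitals. Mcm6 lies at chr1:128359734-128359763, Mcm7 at chr5:138172030-138172059 and Pola1, the catalytic subunit of the primase polymerase, at chrX:93632275-93632304, each on the minus strand.
Mcm6: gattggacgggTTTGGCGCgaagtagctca
Mcm7: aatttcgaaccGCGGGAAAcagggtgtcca
Pola1: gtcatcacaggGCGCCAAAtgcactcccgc
The matches in Mcm7 and Pola1 are on the strand opposite to the gene. Mcm6 fell from 120.3 and 117 FPKM to 21.3 and 22.8 FPKM, Mcm7 from 98.2 and 114 to 21.7 and 21.3 FPKM, and Pola1 from 16.1 and 19.8 to 1.65 and 0.682 FPKM.

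Mitosis genes fell in 36 of 58 members and rose in 0, and their share went from 0.998% and 1.13% to 0.307% and 0.195%. Tpx2, a spindle assembly factor, fell from 147 and 163 FPKM to 41.6 and 24.2 FPKM. Ncaph, a condensin subunit, fell from 61.5 and 66.6 FPKM to 11.1 and 3.17 FPKM, and 5 of the 6 condensin subunits tested fell. Cenpa, the histone variant of centromeres, fell from 127 and 174 FPKM to 29.2 and 7.78 FPKM. Stmn1, a tubulin-binding protein and the most translated member, was at 1119 and 911 FPKM in OPCs and at 626 and 363 FPKM in oligodendrocytes and did not pass the test (adjusted p = 0.0800, or 0.0242 with the replicate block).

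The cell cycle homology region (CHR), TTTGAA, is known from promoters of genes expressed in G2 and M phase. On either strand it was present in 32 of 51 mitosis promoters (62.7%), in 13.5% of promoters of tested genes and in 20.2% of all promoters. The CCAAT box was present on either strand in 74.5% of mitosis promoters and in 44.5% of promoters of tested genes. Among the other lists searched it ranged from 28.3% (cytosolic ribosomal proteins) to 85.7% (cholesterol synthesis). The list of folding in the endoplasmic reticulum stood at 77.8%, so the box was not particular to mitosis genes. The windows show the CHR of called members with the largest share in capitals. Ube2c, the ubiquitin-conjugating enzyme of the anaphase-promoting complex, lies at chr2:164769888-164769917 (plus strand). The condensin genes Ncapd2 and Smc2 lie at chr6:125191692-125191721 (minus strand) and chr4:52439064-52439093 (plus strand), and the spindle motor Kif11 at chr19:37376351-37376380 (plus strand).
Ube2c: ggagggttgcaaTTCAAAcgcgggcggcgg
Ncapd2: cagccgttgaggTTTGAAcagggaattgcg
Smc2: tcgctttccatgTTCAAAacggtatagtct
Kif11: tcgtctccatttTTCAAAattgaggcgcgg
Ube2c fell from 516 and 637 FPKM to 151 and 109.5 FPKM, and Kif11 from 69.1 and 78.0 FPKM to 20.0 and 7.53 FPKM. Ncapd2 fell from 56.9 and 80.3 FPKM to 20.8 and 16.5 FPKM, and Smc2 from 59.1 and 71.0 FPKM to 23.1 and 18.2 FPKM. In each of these 4 genes both oligodendrocyte cultures were below both OPC cultures, as in 37.9% of all tested transcripts. They were chosen among called members, so this is no further test.

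The translation apparatus itself took a smaller share of ribosomes in oligodendrocytes. Cytosolic ribosomal proteins held 5.38% and 5.58% of OPC footprints and 2.13% and 2.49% of oligodendrocyte footprints, and 58 of 60 tested members fell while 0 rose. With libraries scaled to the same sum 44 fell, and 23 without oligodendrocyte replicate 2. The median log2 change was -1.32. Of the large subunit 36 of 38 members fell, and of the small subunit 20 of 20. Their RNA-seq share, weighted by the length of the whole transcript, went from 3.76% and 3.88% to 2.46% and 3.00%. In RNA 20 of 59 fell, against 20.2% of all transcripts tested in RNA. Rack1, a scaffold protein of the small subunit (chr11:48800360-48806434), fell from 2001 and 2195 FPKM to 731 and 824 FPKM. Rack1 is 1 of 2 members of the 60 in which at most 10% of the words are shared with other transcripts, and most ribosomal protein genes have processed pseudogenes.

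Messenger RNAs of ribosomal proteins start with a terminal oligopyrimidine (TOP) tract, through which the mTORC1 pathway controls their translation. The words CTTTC and CTTTT, as well as the word CTTCC, were searched on the transcribed strand in the 30 bases around the annotated start. They were present in 19 of 46 ribosomal protein genes (41.3%), 16.7% of tested genes and 15.1% of all genes of the table. Among the other lists searched they ranged from 2.78% (folding in the endoplasmic reticulum) to 32.2% (splicing factors), so they were not particular to ribosomal proteins. The windows show in capitals the match nearest the annotated start, and can hold further matches, for called members with the largest share, each on the plus strand at chr11:48800345-48800374, chr2:26910792-26910821, chr7:141447636-141447665 and chr7:109519180-109519209 in that order.
Rack1: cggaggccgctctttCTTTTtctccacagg
Rpl7a: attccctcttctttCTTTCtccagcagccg
Rplp2: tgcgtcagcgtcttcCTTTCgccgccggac
Rpl27a: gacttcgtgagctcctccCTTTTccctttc
Rpl27a, a large subunit protein, fell from 2334 and 2269 FPKM to 633 and 751 FPKM. Rplp2, a protein of the ribosomal stalk, fell from 3135 and 3085 FPKM to 1255 and 1324 FPKM. Rpl7a, a further large subunit protein, fell from 1351 and 1485 FPKM to 662 and 863 FPKM. The log2 changes of footprints of these 3 genes were -1.74, -1.27 and -0.91. Those of their RNA were -0.62, -0.33 and -0.43, of which the first RNA change passed the test. These 3 genes are among the 58 of 60 members with more shared words than Rack1. Rack1 had a footprint log2 change of -1.43, and its RNA change is not compared here. Control of translation through the TOP tract was not tested.

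Ribosome assembly factors fell in 26 of 61 members (15 with libraries scaled to the same sum) and rose in 1, with shares of 1.22% and 1.41% in OPCs and 0.596% and 0.638% in oligodendrocytes. Ncl, encoding nucleolin, fell from 629 and 674 FPKM to 212 and 243 FPKM. Npm1, another abundant nucleolar protein, fell from 1299.6 and 1505 FPKM to 369 and 447 FPKM. Sbds, which helps release the large subunit for translation, was the member that rose, from 58.8 and 64.3 FPKM to 142 and 156 FPKM.

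Translation factors fell in 13 of 35 members (37.1%) and rose in 3 (8.57%), against 10.8% and 12.8% of all tested transcripts. With libraries scaled to the same sum 4 fell, where 6.75% of all transcripts did. Eif5a, the factor that relieves stalled peptide bonds, fell from 2986 and 2718 FPKM to 1185 and 1356 FPKM. Eef1b2, the exchange factor of Eef1a1, fell from 1465 and 1448 FPKM to 492 and 580.2 FPKM. The helicase Eif4a2 rose from 126 and 133 FPKM to 285 and 311 FPKM. Its paralogue Eif4a1 measured 959.9 and 1147 FPKM in OPCs, compared with 599 and 727 FPKM in oligodendrocytes (adjusted p = 0.0601, or 0.0129 with the replicate block), with 99% of its words shared with other transcripts. Mitochondrial ribosomal proteins fell in 26 of 61 members, and in 10 with libraries scaled to the same sum. Of the 30 tRNA synthetases, 3 fell and 0 rose, against 10.8% and 12.8% of all tested transcripts, and 0 fell with libraries scaled to the same sum.

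Splicing factors fell in 38 of 71 members and rose in 2, and 17 fell with libraries scaled to the same sum. Their shares were 3.52% and 3.65% in OPCs and 2.22% and 2.32% in oligodendrocytes. Ptbp1, a splicing repressor of neural exons, fell from 385 and 365 FPKM to 128 and 123.5 FPKM. Its paralogue Ptbp3 rose from 30.9 and 28.4 FPKM to 65.1 and 61.9 FPKM. Hnrnpa2b1, which also carries RNA into oligodendrocyte processes, fell from 1279.9 and 1495 FPKM to 767 and 805 FPKM, and was not called with libraries scaled to the same sum (adjusted p = 0.125).

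Cytosolic and mitochondrial chaperones fell in 12 of 35 members and rose in 0, and 5 fell with libraries scaled to the same sum. Hspd1, the mitochondrial chaperonin, fell from 507 and 545 FPKM to 119 and 170.1 FPKM. Of 46 genes for folding and translocation in the endoplasmic reticulum, 4 rose (8.70%) and 8 fell (17.4%), against 12.8% and 10.8% of all tested transcripts. With libraries scaled to the same sum 5 rose and 1 fell, where 17.03% and 6.75% of all transcripts did. The shares of these genes were 2.33% and 2.62% in OPCs and 1.83% and 2.26% in oligodendrocytes. Hspa5 fell from 1480.4 and 1552 FPKM to 848 and 947 FPKM, and was not called with libraries scaled to the same sum (adjusted p = 0.144). Sec62 and Sel1l, which act in translocation and in the removal of misfolded proteins, rose from 86.0 and 107 FPKM to 179 and 169.5 FPKM and from 34.6 and 41.2 FPKM to 71.8 and 72.0 FPKM.

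The lists of energy metabolism differed in their counts. Of 59 oxidative phosphorylation genes, 2 rose and 6 fell, against 12.8% and 10.8% of all tested transcripts, but 5 rose and 1 fell with libraries scaled to the same sum, and 2 rose and 12 fell with the replicate block. Their summed share was 2.73% and 2.85% in OPCs and 2.40% and 2.57% in oligodendrocytes. Ndufa1, a subunit of complex I, rose from 364 and 388 FPKM to 843 and 818 FPKM, and Cycs, encoding cytochrome c, fell from 469.9 and 452 FPKM to 175 and 149.5 FPKM with all of its words shared. In glycolysis 1 of 17 members rose and 5 (29.4%) fell. With libraries scaled to the same sum 2 rose and 3 fell, where 17.03% and 6.75% of all transcripts did. Ldha, the lactate dehydrogenase subunit, fell from 667 and 724 FPKM to 153 and 239 FPKM. In the citrate cycle list the groups overlapped in share, with 1 of 17 members higher and 5 (29.4%) lower, or 1 and 1 with libraries scaled to the same sum. Idh1, the cytosolic isocitrate dehydrogenase that supplies NADPH, was the riser, from 177 and 171 FPKM to 665 and 791 FPKM, and Idh2, its mitochondrial relative, fell from 154 and 204 FPKM to 69.3 and 78.2 FPKM, but was not called with libraries scaled to the same sum (adjusted p = 0.0537). Taldo1, an enzyme of the pentose phosphate pathway, rose from 423 and 389 FPKM to 2029 and 2319 FPKM.

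Extracellular matrix genes and growth factor signalling overlapped between the cell types in summed share, and single members moved in both directions. In the matrix list 17 of 69 rose (24.6%) and 11 fell (15.9%), against 12.8% and 10.8% of all tested transcripts. Igfbp2, a secreted binding protein for insulin-like growth factors (chr1:72824503-72852474), fell from 1988 and 1831 FPKM to 97.9 and 133 FPKM. Fbln2, the matrix protein fibulin-2, fell from 129 and 149.8 FPKM to 0.877 and 1.51 FPKM. Col9a3 and Col9a1, chains of type IX collagen, rose from 58.2 and 49.5 FPKM to 769 and 794 FPKM and from 9.28 and 6.78 FPKM to 369.6 and 460.4 FPKM. Col11a2 was listed at 0 in both OPC libraries and at 116 and 120.4 FPKM in oligodendrocytes. Among growth signalling genes 10 of 62 rose (16.1%) and 7 fell (11.3%), near those of all tested transcripts, and 14 rose and 3 fell with libraries scaled to the same sum. Dusp6 and Spry1, feedback inhibitors of the ERK pathway, fell from 244 and 368 FPKM to 25.7 and 14.1 FPKM and from 115 and 92.6 FPKM to 10.1 and 15.5 FPKM. Etv5, a transcription factor induced by the same pathway, fell from 264 and 248 FPKM to 46.0 and 33.95 FPKM. Mycl, a transcription factor of the Myc family, rose from 6.88 and 4.29 FPKM to 79.4 and 89.7 FPKM. In the Wnt, Notch and BMP list 4 of 53 members rose (7.55%) and 8 fell (15.1%), against 12.8% and 10.8% of all tested transcripts. Hes1, a target of Notch, fell from 61.02 and 51.1 FPKM to 7.05 and 3.18 FPKM.

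The labels of the cultures were checked against marker genes. Of 39 tested OPC markers, 15 rose (38.5%) and 4 fell (10.3%) in oligodendrocytes, against 12.8% and 10.8% of all tested transcripts. Pdgfra, the PDGF receptor of OPCs, was at 116 and 80.4 FPKM in OPCs and higher, at 259 and 236 FPKM, in oligodendrocytes (adjusted p = 0.0220). Sox10, a transcription factor of the whole lineage, rose from 86.3 and 44.3 FPKM to 443 and 500.1 FPKM. Bcan and Cntn1, a matrix proteoglycan and an adhesion protein of OPCs, rose from 215 and 225 FPKM to 767 and 743 FPKM and from 169 and 151 FPKM to 658 and 743 FPKM. Those that fell included Ccnd1, the G1 cyclin, from 365 and 478 FPKM to 82.4 and 68.4 FPKM, and the progenitor factor Sox11, from 133 and 107 FPKM to 35.1 and 28.7 FPKM. The OPC marker list thus had more members higher in oligodendrocytes than in OPCs, against the direction of its name.

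The filament proteins of progenitors were lower in oligodendrocytes. Vim (chr2:13573952-13582826) fell from 2908 and 2527 FPKM to 524 and 274 FPKM, the largest loss of share of any transcript. Nes, encoding nestin, fell from 219.7 and 199.6 FPKM to 27.4 and 21.1 FPKM. Plec, a linker of filaments, rose from 3.05 and 1.64 FPKM to 26.6 and 20.4 FPKM. The 11 tested filament genes together went from 0.904% and 0.786% to 0.231% and 0.159%. Of these, 1 was higher (9.09%) and 3 lower (27.3%), against 12.8% and 10.8% of all tested transcripts.

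Markers of other cell types that the cultures could hold were measured in the same libraries. The 15 astrocyte markers summed to 2402 and 2560.1 FPKM in OPCs, compared with 5867 and 4287 FPKM in oligodendrocytes. Of these, 4 were higher (Apoe, Slc1a2, S100b and Glul) and 2 lower (Slc1a3 and Acsbg1), against 12.8% and 10.8% of all tested transcripts. Gfap, the defining astrocyte filament, was listed at 0 in both OPC libraries and in oligodendrocyte replicate 2, and at 28.03 FPKM in oligodendrocyte replicate 1. The 13 neuron markers summed to 590.1 to 616 FPKM in all 4 libraries, with Rbfox3 at 0 in each, and of the 11 tested 2 were higher (Tubb3 and Dcx) and 1 lower (Gap43), near the shares of all tested transcripts. Markers of microglia summed to at most 1.09 FPKM and those of mesenchymal and vascular cells to at most 1.48 FPKM. The 8 epiblast markers summed to 362 and 229 FPKM in OPCs and to 703 and 526 FPKM in oligodendrocytes, but Nanog, Fgf5, Lin28a and T were at 0 in every library, and the 1 member above the minimum, which held nearly all of the sum, was not called. The 9 Schwann and neural crest markers summed to 394 and 369 FPKM in OPCs and to 533 and 597 FPKM in oligodendrocytes, with 1 higher, 2 lower and 1 at 0 in every library. The 13 neural stem cell markers summed to 12048 and 9809 FPKM in OPCs, compared with 8069 and 4932 FPKM in oligodendrocytes, most of it from Fabp7, which was not called. Of the 9 tested 0 were higher and 2 lower (Nes and Sox1). The part of these markers in the differences above was not tested.

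The largest changes among transcripts above 0 in every library were spread over many functions. Besides Kcna1, Slc1a1 and Cldn11, the 10 largest rises held Rassf10, a Ras association protein, from 0.215 and 0.111 FPKM to 91.2 and 89.1 FPKM. Nfasc, encoding neurofascin, which joins glia to axons beside the node, rose from 1.796 and 1.27 FPKM to 412 and 374 FPKM. Tnr, the matrix glycoprotein tenascin-R (chr1:159737510-159924397), rose from 2.98 and 2.55 FPKM to 449 and 398 FPKM. Padi2, which converts arginine to citrulline in myelin proteins, rose from 0.512 and 0.389 FPKM to 77.8 and 35.7 FPKM. Itpr2, an intracellular calcium channel, and Serpini1, the protease inhibitor neuroserpin, were also among them, with log2 changes of 6.52 and 6.41. Rassf10, Padi2, Itpr2 and Kcna1 had an OPC mean under 1 FPKM and entered the test through oligodendrocytes. In each of the 10, both oligodendrocyte libraries were above both OPC libraries, as in 31.8% of all tested transcripts. The 10 were chosen for large called rises, so this is no further test.

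Lgals1, encoding galectin-1 (chr15:78926725-78930465), was the most translated of the 10 largest falls, from 5004 and 3562 FPKM to 235 and 141 FPKM. Mest, an imprinted gene of growing tissues, fell from 588 and 789 FPKM to 31.8 and 27.5 FPKM. Fbln2 and Ctsc, given above, were followed by Cd109, a membrane-anchored TGF-beta co-receptor, from 59.7 and 95.5 FPKM to 5.35 and 0.782 FPKM. Pipox, a peroxisomal oxidase, fell from 33.2 and 50.9 FPKM to 1.16 and 1.12 FPKM. Arhgap18, a GTPase activating protein, Kntc1, a kinetochore protein, Lama5, a laminin chain, and Smpdl3b, a phosphodiesterase of the plasma membrane, fell with log2 changes of -5.005, -4.48, -4.42 and -4.36, of which Kntc1 did not pass with the replicate block (adjusted p = 0.0658). Kntc1 and Lama5 had an oligodendrocyte mean under 1 FPKM. In each of these 10, both oligodendrocyte libraries were below both OPC libraries, as in 37.9% of all tested transcripts. The 10 were chosen for large called falls, so this is no further test.

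The 10 largest gains of share added 4.64 percentage points, with Cnp, Actb and Mag among them, and the 10 largest losses removed 2.64 points, of which 6 were histone transcripts (Hist1h3h, Hist1h3b, Hist2h3c1, Hist2h3b, Hist1h4m and Hist1h3i) whose reads can be assigned to one another.

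The redistribution altered the codons that ribosomes had to decode. The codon demand is the codon composition of each coding sequence weighted by footprint share. It reflects which genes were translated, not where on the mRNA ribosomes stood. Of the 61 sense codons, 28 made up a larger share in both oligodendrocyte libraries than in both OPC libraries, 12 a smaller one, and 21 overlapped. The lysine codon AAG went from 5.04% and 4.80% to 4.196% and 4.15%, and the arginine codon CGC from 1.801% and 1.51% to 1.20% and 1.12%. Lysine in all went from 7.46% and 7.29% of decoded residues to 6.47% and 6.45% and arginine from 6.30% and 6.05% to 5.58% and 5.47%. Leucine went from 8.93% and 8.99% to 9.34% and 9.33%, and phenylalanine from 3.43% and 3.55% to 3.76% and 3.82%.

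Histones and ribosomal proteins are rich in lysine and arginine and used 15.98% and 12.6% of OPC footprints together. Without both lists lysine still went from 6.56% and 6.56% to 6.18% and 6.19%, but 21 codons were higher and 26 lower. In the same setting AAG went from 4.08% and 4.05% to 3.91% and 3.90%, a smaller change than with all transcripts. Arginine went from 5.54% and 5.47% to 5.36% and 5.27%. Its codon CGC then overlapped between the cell types, at 1.028% and 0.987% in OPCs against 1.013% and 0.982% in oligodendrocytes. The share of AAA among lysine codons changed direction, from 32.4% and 34.1% in OPCs and 35.2% and 35.6% in oligodendrocytes with all transcripts to 37.8% and 38.2% and 36.7% and 36.9% without those lists. G or C at the third base overlapped between the cell types with all transcripts, at 61.9% and 60.4% in OPCs against 60.6% and 60.1% in oligodendrocytes, and did not without those lists, at 58.5% and 58.1% against 59.9% and 59.5%. Phenylalanine's UUU share was lower in oligodendrocytes both with these lists (43.8% and 44.8% against 43.1% and 43.3%) and without them (45.9% and 46.3% against 43.5% and 43.6%).

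Ribosome use also moved to longer proteins. Weighted by FPKM, a measure of ribosome density, the mean coding sequence had 270.3 and 290.0 codons in OPCs and 335 and 349 codons in oligodendrocytes. Without histones and ribosomal proteins, which are short, the values were 339.8 and 351 codons against 362 and 376 codons.

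**Figure D5:**
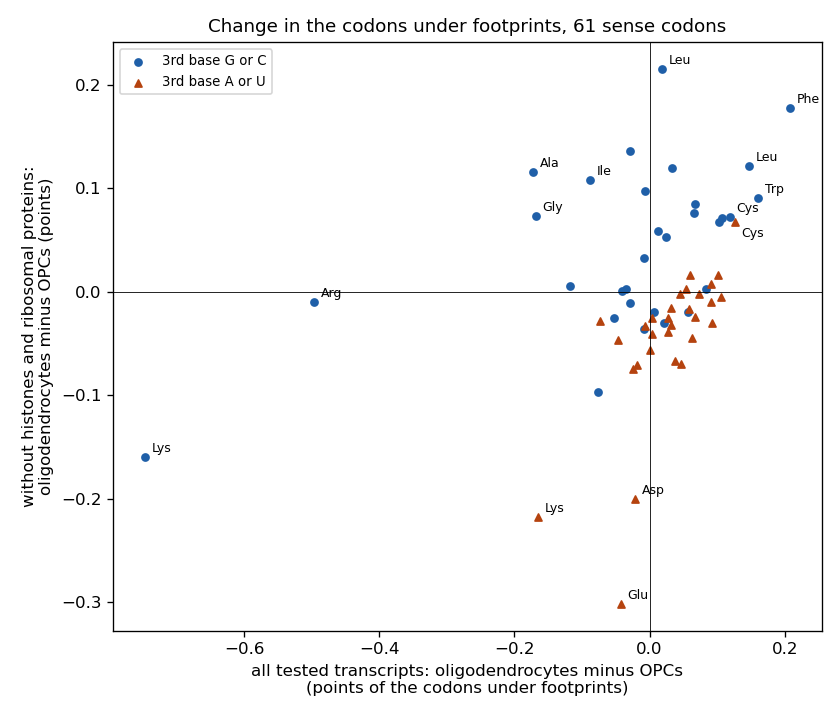
Change in codon demand, oligodendrocytes minus OPCs in percentage points of decoded codons (means of 2 libraries), for the 61 sense codons, over all tested transcripts on the horizontal axis and without histones and ribosomal proteins on the vertical axis, with the encoded amino acid beside the 14 points farthest from 0. AAG, for lysine, lies farthest to the left, and several codons are below 0 on 1 axis and above it on the other.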

How the data were processed

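Footprints and RNA-seq of 2 OPC and 2 oligodendrocyte cultures were analysed (8 libraries), with groups taken from the sample labels. Per the study's methods, the authors clipped adapters (reads of at least 18 bases kept), aligned to GRCm38 with HISAT2 2.1.0 and quantified canonical Gencode M9 coding transcripts with StringTie 1.3.5 and ballgown. The deposited unit is FPKM, over the coding sequence for footprints and the whole transcript for RNA. Read counts were not used here, and depth was estimated from the steps of low values.

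From these values, transcripts whose libraries averaged 1 FPKM or more were tested with limma 3.58.1 (R 4.3.3, trend, two-sided) on log2(FPKM + 0.1), 2 against 2, RNA separately. Fold changes of low genes depend on the added constant. It can understate them, or overstate them where 1 library of a group is at 0. For Sema4d the log2 change was 8.06, and 5.86 with a pseudocount of 1. The procedure was tested on simulated data. Coordinates, exons and coding sequences came from Gencode M21, promoters from RefSeq. Words of 30 bases found in a transcript of another gene were counted as shared. Alternatives changed the pseudocount, minimum, trend, scaling, pairing and libraries.

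Named transcripts were the 10 with the largest share per cell type, the 10 largest called rises and falls above 0 in every library, the 10 largest gains and losses of share, and per list the 4 largest shares and up to 2 called members with the largest change in each direction. Promoter windows show called members with the largest share that hold the motif, and marker genes are named in the marker check. The rule names 274 transcripts, of which the text gives 113. Members and lists were chosen with earlier results of these data known. List patterns were corrected after values were seen, which removed 7 wrongly matched genes, and 3 lists (among them ubiquitin and zinc finger) were added then. The remaining added list and the other transcripts that the rule names are not reported here. The study's methods pair OPC with oligodendrocyte cultures without giving the numbers, and same-numbered cultures were taken as the pairs in the block. Deviations from group means correlated at 0.0860 in footprints and 0.108 in RNA over pairs.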

Additional observations from a re-analysis of the deposited data

How the results depend on the processing

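The number of transcripts past the threshold (1969) was within 1.5 times of that count under median-ratio scaling (1885), a minimum of 5 FPKM (1988), no minimum (1848), a pseudocount of 1 (2198) and the same sum (1984). Without the trend limma called 1036 (671 higher, 365 lower), and with the same sum 1421 were higher and 563 lower. Leaving out 1 library gave 0 to 3010 calls (0 to 882 higher and 0 to 2128 lower), where the lone library was assumed to vary like the rest. The replicate block, which pairs the cultures, called 1735 (932 higher, 803 lower), 1569 of them shared with the unpaired fit. In RNA it called 3323 against 2772. Under the block Kntc1, Prr5l and Chl1 lost their call (limma adjusted p = 0.0658, 0.0720 and 0.0850), and Fabp7, Hsp90ab1, Stmn1, Eef1a1, Gnas, Actb and Eif4a1 were called (adjusted p = 0.0129 to 0.0390). Of 113 named transcripts, 28 lost their call without the trend (Cd81, Fscn1, Psap, Ncam1, Ctsc, Hsd17b7 and Ebp among them), 22 without oligodendrocyte replicate 1, 37 without oligodendrocyte replicate 2 and 100 without either OPC replicate. With the same sum Hspa5, Hnrnpa2b1, Idh2 and Ppia were not called (adjusted p = 0.0537 to 0.144).

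Without coding length, the difference of share between oligodendrocytes and OPCs was -5.47 points for ribosomal proteins, 4.65 for myelin and -13.6 for histones (with it, -3.17, 5.00 and -6.68). There, oxidative phosphorylation (0.56), glycolysis (0.015), folding in the endoplasmic reticulum (0.041) and the proteasome (0.10) changed direction. So did the citrate cycle (0.069) and growth signalling (0.048) lists, whose groups overlapped with coding length. Also without coding length, 12 lists were lower in place of 19. In that setting 50% of the footprints lay on 214 transcripts in OPCs and 380 in oligodendrocytes, against 487 and 555. Restricted to transcripts with at most 10% of words shared, which leaves few histones and ribosomal proteins, the differences were -0.49 for histones, -0.51 for ribosomal proteins and 6.26 for myelin, and the ubiquitin (-0.075) and zinc finger (-0.077) lists changed direction. Without the 10 transcripts with the largest share myelin differed by 3.13 points. Without histones 50% lay on 558 transcripts in OPCs and 540 in oligodendrocytes, the reverse of the order with them. Without histones and ribosomal proteins the AAA share of lysine codons changed by -1.20 points. The restriction by shared words and both settings without histones were chosen after seeing the data. Of the named transcripts, Hspa8 (0.088) and Atp5b (0.042) changed sign with the same sum, and without 1 library Ptprz1 (-0.14 to 0.18, with -0.11 without OPC replicate 1) and Sqle (-0.059 to 0.31), none of them called. The cause of these shifts was not tested. With 2 cultures a group and an uncertain depth, low transcripts are measured with little precision.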

Other observations

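Several transcripts outside the function lists moved strongly. They were chosen after their values were seen. Ptgds, a prostaglandin synthase secreted by glia, rose from 56.3 and 63.7 FPKM to 2499 and 1653 FPKM. Rnd2, a small GTPase, rose from 43.3 and 32.5 FPKM to 1130.5 and 889 FPKM, with 22.5% of its 30-base words shared with other transcripts. Tspan4, a tetraspanin, rose from 53.2 and 54.5 FPKM to 1193 and 1785 FPKM, and Cst3, a secreted protease inhibitor, from 1525 and 1826 FPKM to 3719 and 3099 FPKM. In these 4 genes both oligodendrocyte libraries were above both OPC libraries, as in 31.8% of all tested transcripts, and their choice by value makes this no further test.

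Among transcripts that fell outside the lists, Ccnd2, a G1 cyclin, went from 571 and 675 FPKM to 56.0 and 20.7 FPKM. S100a10, a partner of annexin A2, fell from 1722 and 1329.5 FPKM to 178 and 79.7 FPKM, and Ran, the GTPase of nuclear transport, from 2295 and 2363 FPKM to 885 and 904 FPKM. Tpt1 was the transcript called in opposite directions by footprints and RNA. This translationally controlled protein had footprints of 1599 and 1960.4 FPKM in OPCs, compared with 856 and 931 FPKM in oligodendrocytes (log2 change -0.99, limma adjusted p = 0.0221), while its RNA had a log2 change of 0.58 (adjusted p = 0.0418). All of its words are shared with other transcripts.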
